A study of Mus musculus with 26 samples.

Results

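The comparison set Sca-1 positive cardiac stromal cells at day 7 after coronary ligation against the same gate of undamaged hearts, in 3 and 5 bulk RNA sequencing libraries of the 26 in the series. All libraries came from C57BL/6 mice of the strain B6.129S4-Pdgfratm11(EGFP)Sor/J, whose Pdgfra allele drives a nuclear green fluorescent protein (genotype PDGFRa H2BEGFP+), so every group carried that allele and was selected for Pdgfra activity. SCA-1 is the surface protein encoded by Ly6a. The day 7 group came from hearts taken 7 days after the left anterior descending (LAD) coronary artery was tied off, and the undamaged group from hearts with no ligation. No sham-operated group and no animal ages are given in the labels. The members were the libraries with that time point whose deposited counts are named as positive, replicates 1, 1A and 4A at day 7 and E1, E3, F3, A6 and B7 undamaged. The labels give the gate for replicate 1 and for all 5 undamaged libraries, while the gate of 1A and 4A was read from the name of the deposited counts. Values are listed below in this order of replicates. The labels do not say whether libraries came from separate animals or pools, so a p here reflects only how these libraries differ among themselves.

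Cardiac fibroblasts are the resident matrix-producing cells of the heart and arise largely from the epicardium. After the death of muscle they divide, migrate into the infarct and take on contractile and secretory features, and the collagen they lay down becomes the scar. A Sca-1 positive subset carries genes of the outer vessel wall (the adventitia) and has been described as a progenitor-like reserve, from which activated fibroblasts can be derived.

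The libraries held 14.9 to 19.1 M (mega) counts assigned to genes at day 7 and 15.5 to 22.3 M in undamaged hearts, and a count of 3 is worth 0.135 to 0.202 CPM, the count scaled to a common library total of 1 M. Pdgfra, the sort's reporter gene, had 495, 507 and 528 CPM at day 7 and 578, 644, 661, 669 and 479 CPM in undamaged hearts (log2 -0.25 ± 0.16, adjusted p = 0.415). Ly6a had 295, 295 and 330.2 CPM at day 7 and 1260.5, 709, 777, 276 and 322 CPM in undamaged hearts, a log2 difference of -1.12 ± 0.44 that did not pass the test (adjusted p = 0.174). The day 7 libraries lay within the undamaged range, whose low end was set by A6 and B7. With DESeq2 the adjusted p of Ly6a was 0.0499. Its log2 difference, however, was 0.064 in the libraries whose title code carries a number before the letter. It was 0.063 with the kind of code as a covariate, a fit that takes the difference from the same libraries. Ptprc, which encodes the excluded leukocyte antigen CD45, stood between 0.535 and 1.46 CPM at day 7 and between 0 and 0.359 CPM in undamaged hearts before library scaling. Xist, the RNA of the inactive X chromosome, had 105, 3.12 and 228 CPM at day 7 and 0.424, 0.106, 0.339, 0.293 and 0.0820 CPM in undamaged hearts, while the Y-linked genes Ddx3y, Eif2s3y, Kdm5d and Uty had counts in all 8 libraries. Day 7 replicates 1 and 4A, with Xist above 20 CPM, thus held it and Y-linked transcripts together, and are called Xist-bearing below. Replicate 1A also had Xist above every undamaged library, at 3.12 CPM. On the first principal component (42% of the variance) the day 7 libraries stood at 35.6 to 46.5 and the undamaged ones at -57.6 to -13.8, with replicate B7 apart from the other 4 undamaged libraries on the second.

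Of 12822 genes tested, 506 (3.95%) were higher and 288 (2.25%) lower at day 7, 6.19% in all, by edgeR's quasi-likelihood test at a Benjamini-Hochberg adjusted p under 0.05, here called a call. Among these, 355 were at least 2-fold higher (2.77% of all genes) and 130 at least 2-fold lower (1.01%). In 1252 genes (9.76%) all day 7 libraries lay above all undamaged ones, and in 977 (7.62%) below. The median log2 difference over all genes was -0.027. Without a single library the number of calls ran between 317 (without day 7 replicate 1) and 1508 (without undamaged B7), against 794 with all 8. The other such fits gave 318 calls without day 7 replicate 1A, 506 without 4A, 439 without undamaged E3, 496 without F3, 527 without E1 and 740 without A6. With replicate 1, whose gate is in the labels, as the only day 7 library there were 104 calls, and without the Xist-bearing replicates 1 and 4A there were 133. Title codes that carry a number before the letter (1A and 4A at day 7, A6 and B7 undamaged, here called prefixed) are partly confounded with time point. Within the prefixed libraries there were 131 calls, and with the kind of code as a covariate 456. Day 7 replicate 1 is the only compared library without such a code, and letter codes alone occur only in undamaged E1, E3 and F3. The covariate fit therefore also takes the day 7 difference from 1A and 4A against A6 and B7. Both settings give nearly the same differences by design and differ mainly in the spread used, so neither backs the other. Among the calls, 190 higher and 44 lower ones were made again in each of the 8 fits that leave out 1 library, and a call below is of this kind unless a library is named whose omission ended it, with the adjusted p without that library in parentheses. In bulk samples a change in the share of cells of one kind and a change of RNA per cell cannot be told apart.

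**Figure D1:**
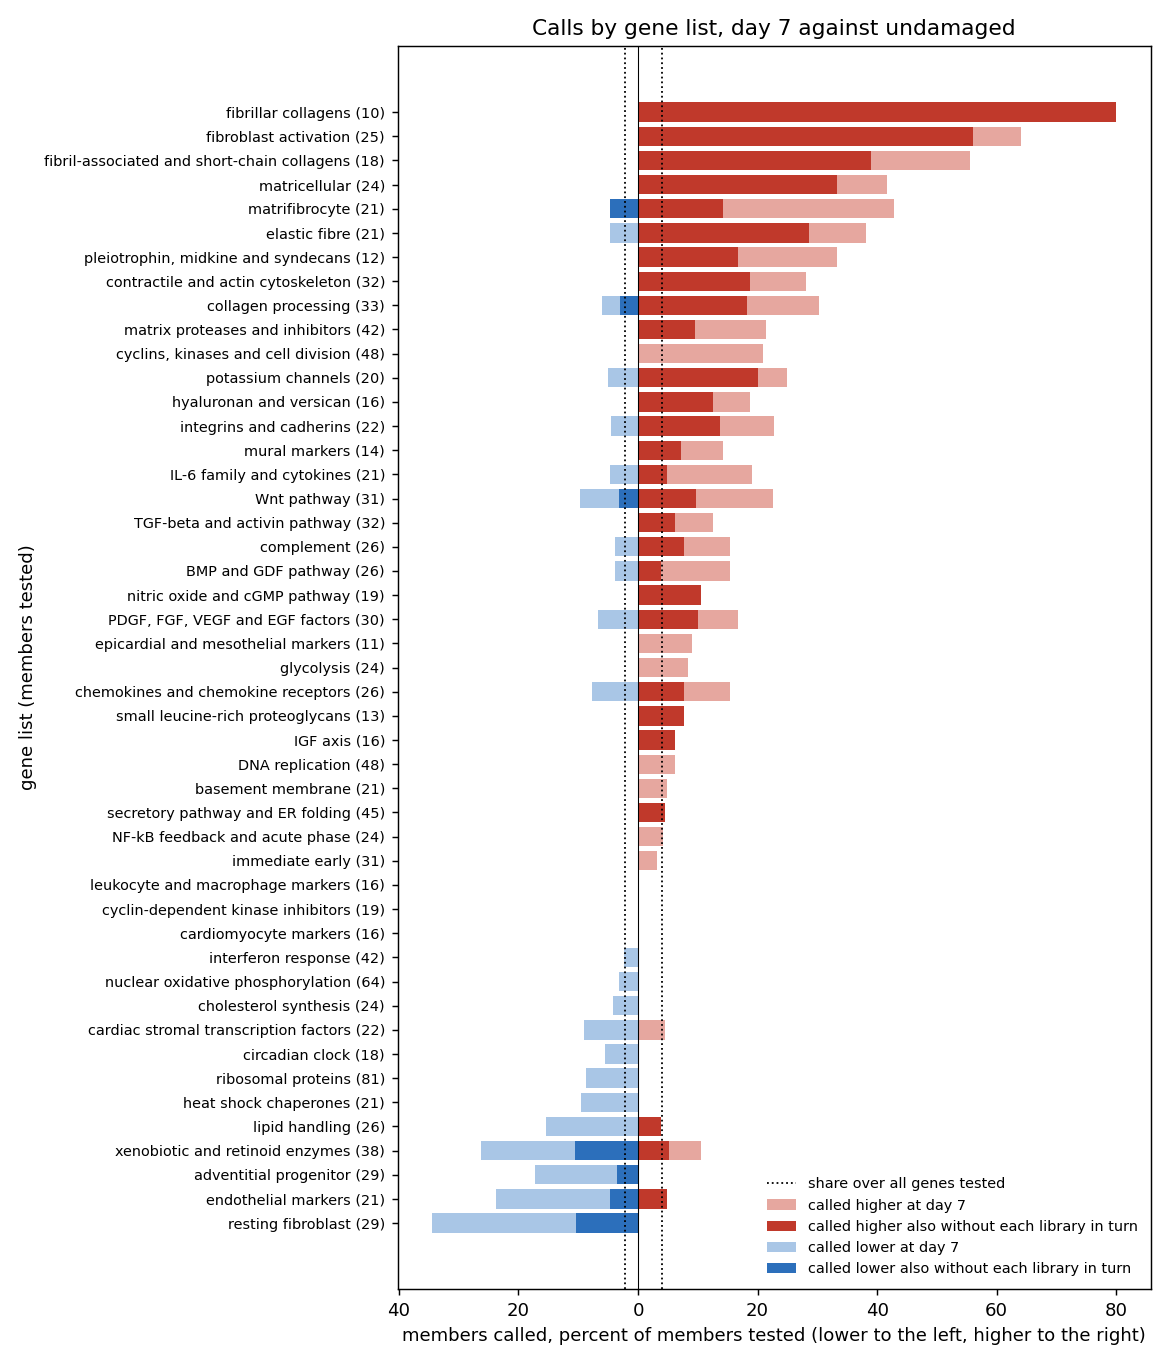
Percent of tested members called higher or lower at day 7 for the gene lists, with the dark part of each bar for calls made again without each library in turn and dotted lines at the background shares of 3.95% (higher) and 2.25% (lower). Fibrillar collagens (8 of 10) and the fibroblast activation list (16 of 25) stand farthest to the higher side. The list named cyclin-dependent kinase inhibitors also holds D-type cyclins and other cell cycle regulators.

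The genes that mark activated and scar-forming fibroblasts stood at the top of the comparison. Of 25 tested members of that list, 16 were higher and 0 lower, 14 of them without each library in turn, against a background of 3.95%, and their median log2 difference was 2.65. Cthrc1, a secreted protein that marks the matrix-producing fibroblasts of infarcts (ENSMUSG00000054196.7, GRCm38 chromosome 15, 39076932 to 39087121), had 402, 536 and 211 CPM at day 7 and 2.07, 1.16, 2.18, 0.645 and 1.19 CPM in undamaged hearts. The difference was 8.03 ± 0.40 on the log2 scale (adjusted p = 1.30e-05), and every day 7 library stood far above the highest undamaged one. Kif26b, an atypical kinesin of cell polarity and migration (ENSMUSG00000026494.12, GRCm38 chromosome 1, 178529125 to 178939200), had 46.9, 99.9 and 34.4 CPM at day 7 and 0.371, 0.159, 0.291, 0.352 and 0 CPM in undamaged hearts (log2 8.04 ± 0.53, adjusted p = 5.11e-05). Undamaged libraries were thus near the level of 3 counts for this gene and day 7 libraries far above it. Ddah1, which degrades the asymmetric dimethylarginine that inhibits nitric oxide synthases (ENSMUSG00000028194.15, GRCm38 chromosome 3, 145758675 to 145894277), had 183, 327 and 93.6 CPM at day 7 and 4.51, 2.96, 5.04, 2.35 and 2.99 CPM in undamaged hearts (log2 5.81 ± 0.39, adjusted p = 5.11e-05). Adam12, a membrane metalloprotease of activated mesenchyme (ENSMUSG00000054555.11, GRCm38 chromosome 7, 133883199 to 134232146), had 63.5, 99.9 and 82.1 CPM at day 7 and 3.87, 2.38, 5.86, 2.99 and 1.80 CPM in undamaged hearts (log2 4.60 ± 0.32, adjusted p = 6.88e-05). Both genes separated the groups completely.

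Postn, which encodes the matricellular protein periostin and is the standard marker of activated cardiac fibroblasts (ENSMUSG00000027750.16, GRCm38 chromosome 3, 54361109 to 54391037), had 10050.2, 15144 and 6152 CPM at day 7 and 1607, 1344, 2004, 572 and 395 CPM in undamaged hearts. The log2 difference was 3.14 ± 0.50 (adjusted p = 0.00538). Among undamaged libraries F3 was the highest and B7 the lowest, and all 5 lay below the lowest day 7 library. Lrrc15, a membrane protein of TGF-beta-responsive stromal cells, was 6.69 higher on the log2 scale (7.07 to 21.1 CPM at day 7 and 0 to 0.484 CPM in undamaged hearts, adjusted p = 8.96e-04). Runx1, a transcription factor of injury responses, ranged over 115 to 167 CPM at day 7 and 3.40 to 19 CPM in undamaged hearts (log2 3.79 ± 0.45, adjusted p = 9.87e-04). Scx, the transcription factor scleraxis of tendon progenitors, averaged 8.31 ± 8.22 CPM at day 7 (SD, n = 3) and 0.522 ± 0.298 CPM in undamaged hearts (SD, n = 5), and its call ended without day 7 replicate 1A (0.0822). Ncam1, a homophilic adhesion molecule, and Sox4, a transcription factor induced by TGF-beta, were 3.15 and 1.46 higher on the log2 scale. Itga11, the collagen-binding integrin subunit alpha 11, was 0.83 higher (adjusted p = 0.0410), a call that ended without day 7 replicate 1 (0.152), 1A (0.125), 4A (0.0886), undamaged replicate A6 (0.0609), E1 (0.0962) and E3 (0.0942). The members without a call included Fap (0.42 ± 0.27, adjusted p = 0.416), the surface protease used to target activated fibroblasts, Meox1 (0.065 ± 0.17, adjusted p = 0.866), a homeobox factor of stressed cardiac fibroblasts, and Sox9 (-0.036 ± 0.12, adjusted p = 0.902), the chondrogenic factor.

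**Figure D2:**
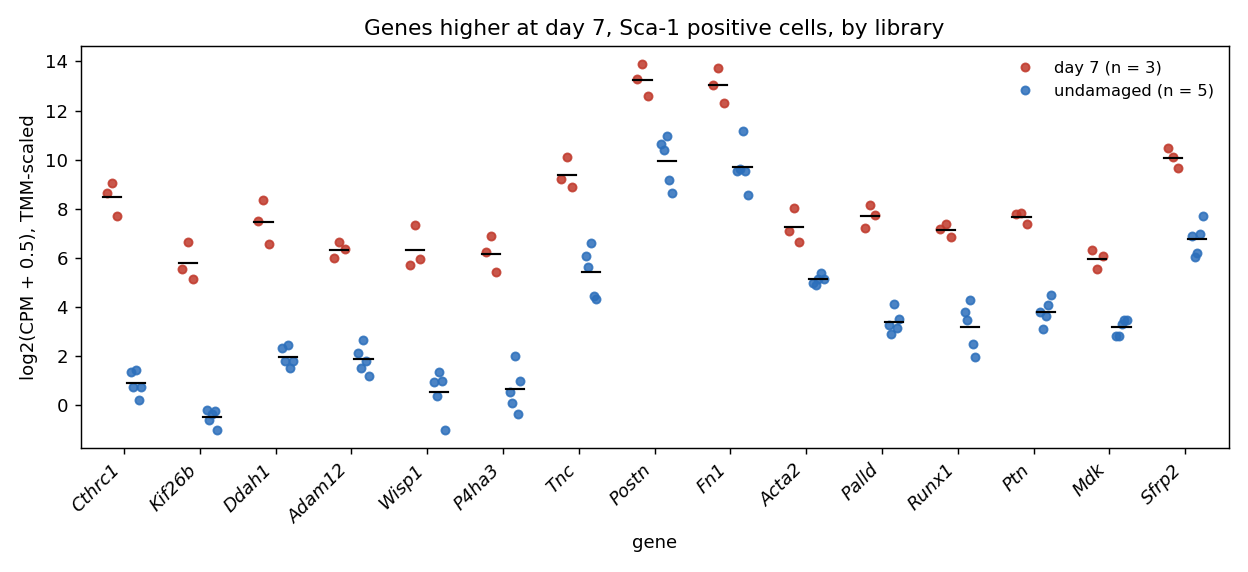
CPM per library on a log2 axis (after adding 0.5 CPM) for 15 genes higher at day 7, day 7 to the left of undamaged, with dots for libraries and a line at the mean. In Cthrc1, Kif26b, Ddah1 and Adam12 the 3 day 7 dots lie far above all 5 undamaged dots.

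Fibrillar collagens form the tensile fibres of the scar. Of 10 tested members, 8 were higher and 0 lower, and the 8 calls were made without each library in turn (background 3.95%, median log2 difference 2.25). Col1a1, the alpha 1 chain of type I collagen (ENSMUSG00000001506.10, GRCm38 chromosome 11, 94936224 to 94953042), had 26773, 30482 and 20905 CPM at day 7 and 4089, 4101, 4159, 3897 and 3124 CPM in undamaged hearts (log2 2.75 ± 0.22, adjusted p = 1.21e-04). Its partner chain Col1a2 had 19543, 26365 and 14863 CPM at day 7 and 3878, 3859, 4508, 4077 and 3254 CPM in undamaged hearts (log2 2.37 ± 0.23). Col3a1, the single chain of type III collagen (ENSMUSG00000026043.18, GRCm38 chromosome 1, 45311538 to 45349706), had 43551, 46288 and 32947 CPM at day 7 and 7312, 6651, 6788, 6156 and 6926 CPM in undamaged hearts (log2 2.60 ± 0.21, adjusted p = 1.23e-04). The undamaged libraries lay close together for these 3 genes and all day 7 libraries lay above them. Col5a1 and Col5a2, chains of the type V collagen that nucleates fibrils, were 1.58 and 2.12 higher on the log2 scale. The largest differences were in chains near absent from undamaged cells. Col11a1, of cartilage-type fibrils (ENSMUSG00000027966.20, GRCm38 chromosome 3, 114030540 to 114220718), had 27.6, 76.9 and 8.50 CPM at day 7 and 0.0530, 0, 0.145, 0.352 and 1.89 CPM in undamaged hearts (log2 6.14 ± 0.95), and Col24a1 averaged 11.5 ± 4.79 CPM at day 7 (SD, n = 3) and 0.145 ± 0.175 CPM in undamaged hearts (SD, n = 5). Col27a1 was 1.56 higher on the log2 scale.

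Among the fibril-associated, beaded and short-chain collagens, 10 of 18 tested members were higher and 0 lower, 7 of them without each library in turn. Col8a2, a short-chain network collagen, had 138, 164 and 79.1 CPM at day 7 and 14.2, 12.7, 18.1, 10.4 and 9.43 CPM in undamaged hearts (log2 3.29 ± 0.26, adjusted p = 1.21e-04). Col12a1, which bridges fibrils to their surroundings, had 245, 506 and 186 CPM at day 7 and 53.5, 45.5, 84.5, 27.3 and 24.4 CPM in undamaged hearts (log2 2.73 ± 0.42). Col7a1, of anchoring fibrils, Col9a2, of cartilage fibril surfaces, and Col16a1 were 4.01, 3.10 and 1.89 higher on the log2 scale, and Col14a1 and Col6a3 were 1.44 and 1.42 higher. Col6a1, of beaded microfilaments, ranged over 2873 to 3757 CPM at day 7 and 1742 to 2357 CPM in undamaged hearts, and its call ended without day 7 replicate 1 (0.12), 1A (0.119), undamaged replicate E1 (0.0801), E3 (0.0832) and F3 (0.0629). Col6a5 (3.70) lost its call without day 7 replicate 1A (0.0548) and 4A (0.0532). Of 21 tested genes of the basement membrane, the sheet under endothelium and around muscle fibres, 1 was higher (4.76%, background 3.95%) and 0 lower. This was Agrn, a heparan sulphate proteoglycan (log2 1.07 ± 0.21, adjusted p = 0.0137), whose call ended without day 7 replicate 1 (0.0755) and 1A (0.058).

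**Figure D3:**
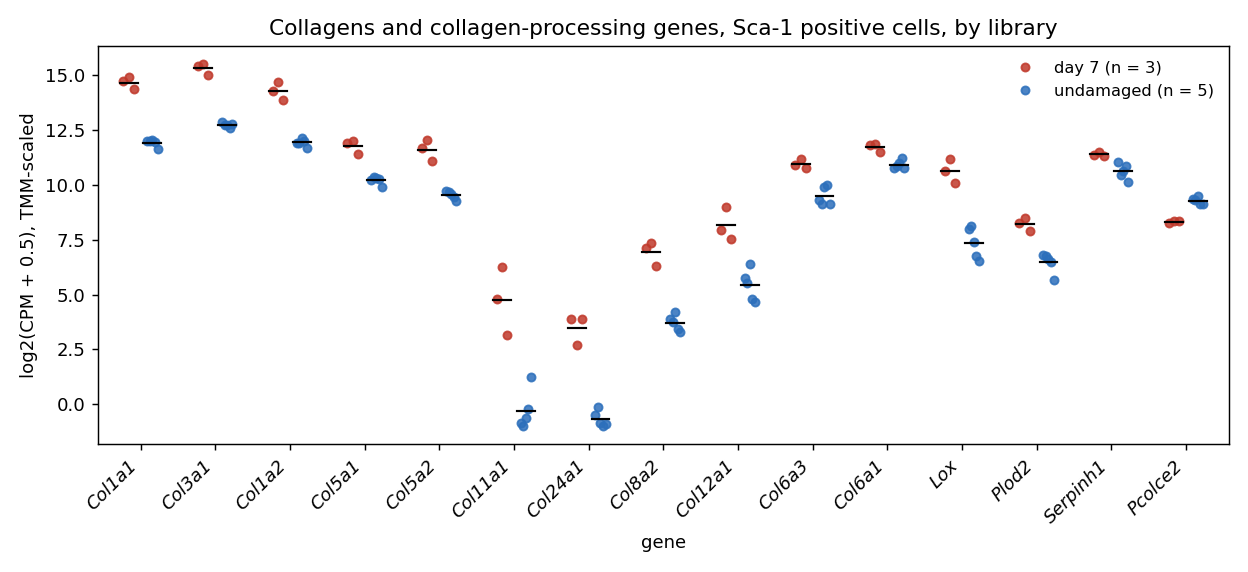
CPM per library on a log2 axis (after adding 0.5 CPM) for collagen chains and collagen-processing genes, day 7 to the left of undamaged, with dots for libraries and a line at the mean. Pcolce2 is the one gene of the panel that lies lower at day 7 (log2 -0.96).

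Collagen chains need hydroxylation, folding, propeptide cleavage and cross-linking, and of 33 tested genes of these steps 10 were higher and 2 lower. The higher count was 6 without day 7 replicate 1 and 6 without 1A. P4ha3, an alpha subunit of the prolyl hydroxylase that stabilises the triple helix (ENSMUSG00000051048.17, GRCm38 chromosome 7, 100285520 to 100319699), had 74.2, 117 and 42.6 CPM at day 7 and 0.954, 0.582, 3.54, 0.293 and 1.48 CPM in undamaged hearts (log2 5.80 ± 0.57, adjusted p = 4.03e-04). Lox, the lysyl oxidase that starts cross-links (ENSMUSG00000024529.14, GRCm38 chromosome 18, 52516067 to 52529867), had 1566, 2317 and 1089.9 CPM at day 7 and 251, 280.5, 167, 106 and 91.8 CPM in undamaged hearts (log2 3.21 ± 0.39, adjusted p = 0.00114). Neither gene overlapped between the groups. Plod2, a lysyl hydroxylase of the telopeptides, was 1.72 higher on the log2 scale, Loxl3 1.49, the procollagen N-proteinase Adamts2 1.35 and the C-proteinase Bmp1 0.97. Serpinh1, the collagen chaperone, differed by 0.73 ± 0.22 and did not pass the test (adjusted p = 0.0772). In the opposite direction, Pcolce2, a secreted enhancer of C-proteinase, had 309.9, 323 and 325 CPM at day 7 and 649.7, 633, 723, 553 and 551 CPM in undamaged hearts (log2 -0.96 ± 0.16, adjusted p = 0.00569). The related enhancer Pcolce differed by 0.003 ± 0.18 (adjusted p = 0.995).

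Matricellular proteins sit in the matrix and signal to cells, and 10 of 24 tested members were higher and 0 lower, 8 of them without each library in turn. Fn1, fibronectin, had 8481, 13643 and 5102 CPM at day 7 and 740.1, 787, 2299.8, 739 and 381 CPM in undamaged hearts (log2 3.20 ± 0.52, adjusted p = 0.00576). Tnc, tenascin C, had 585, 1094 and 472 CPM at day 7 and 66.7, 49, 96.3, 21.2 and 19.6 CPM in undamaged hearts (log2 3.83 ± 0.51). In both genes F3 was the highest undamaged library and lay below every day 7 library. Wisp1 (Ccn4), a CCN family protein, had 52.3, 160.2 and 61.4 CPM at day 7 and 1.43, 0.793, 2.08, 1.47 and 0 CPM in undamaged hearts (log2 6.33 ± 0.66, adjusted p = 5.84e-04). Sparc, a collagen-binding glycoprotein, averaged 12205 ± 2926 CPM at day 7 (SD, n = 3) and 3377 ± 138 CPM in undamaged hearts (SD, n = 5) (log2 1.85 ± 0.21). Tnn, tenascin N, and Matn4, a matrilin, were 7.08 and 3.13 higher. Matn3 had no count in any undamaged library and 166 counts over the day 7 libraries. The ratio per library total was 111 when 3 counts over the undamaged group are taken as the floor. Its exact 95% lower limit was 89.4 (counting error only). Comp, a cartilage oligomeric protein, had 1147, 769 and 219 CPM at day 7 and 231, 146, 231, 79.2 and 72.3 CPM in undamaged hearts (log2 2.23 ± 0.51), and its call ended without day 7 replicate 1 (0.154), 1A (0.108), undamaged replicate A6 (0.0547) and E3 (0.0675). Spp1, osteopontin, lost its call (3.79) without day 7 replicate 1 (0.1), 1A (0.0842) and undamaged replicate E3 (0.0533).

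Elastic fibres and the microfibrils that carry them showed 8 members higher and 1 lower of 21 tested, 6 of the higher ones without each library in turn. Eln, elastin, had 7296, 1692 and 1815 CPM at day 7 and 587, 714, 282, 459.7 and 833 CPM in undamaged hearts (log2 2.65 ± 0.49, adjusted p = 0.0116). Day 7 replicate 1 stood well above the other 2 day 7 libraries for Eln, and without it the difference was 1.61. Fbn2, the fibrillin of developing tissue, had 81.5, 108 and 133 CPM at day 7 and 5.99, 4.49, 1.55, 6.27 and 15 CPM in undamaged hearts (log2 4.00 ± 0.50). Fbn1, the adult fibrillin, differed by 0.91 ± 0.30 (adjusted p = 0.108). Ltbp2, a latent TGF-beta binding protein of microfibrils, Mfap4 and Mfap2 were 2.65, 1.72 and 1.40 higher on the log2 scale. Efemp1 (fibulin 3) was lower (log2 -1.71 ± 0.39, adjusted p = 0.0282), a call that ended without day 7 replicate 1 (0.0887), 1A (0.107), undamaged replicate E1 (0.0579), E3 (0.0593) and F3 (0.058).

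A list of cartilage- and tendon-like genes described in late scar fibroblasts (matrifibrocytes) had 9 members higher and 1 lower of 21 tested at day 7. The higher count was 5 without day 7 replicate 1 and 4 without 1A. Fmod, fibromodulin, a leucine-rich proteoglycan that binds collagen fibrils (ENSMUSG00000041559.7, GRCm38 chromosome 1, 134037254 to 134048277), had 244, 235 and 115 CPM at day 7 and 15.2, 12.8, 16.7, 27.3 and 17.4 CPM in undamaged hearts (log2 3.47 ± 0.28, adjusted p = 1.23e-04). Acan, aggrecan, averaged 10.03 ± 8.41 CPM at day 7 (SD, n = 3) and 0.150 ± 0.280 CPM in undamaged hearts (SD, n = 5), and its call ended without day 7 replicate 1 (0.0547) and 1A (0.0805). Cytl1, a secreted protein of cartilage, went the other way, with 22.8, 5.52 and 9.83 CPM at day 7 and 76.7, 77, 82.1, 103 and 68.3 CPM in undamaged hearts (log2 -2.69 ± 0.39, adjusted p = 0.00343). Fmod was also the only called member of 13 small leucine-rich proteoglycans, among which Dcn, decorin, differed by -0.77 ± 0.22 (adjusted p = 0.0632) and Lum, lumican, by 0.34 ± 0.19 (adjusted p = 0.329). Of 16 genes of hyaluronan and versican, 3 were higher. They were Acan, Cemip, which depolymerises hyaluronan (12.2, 71.7 and 14.1 CPM at day 7 and 0.848, 0.106, 0.145, 0 and 0.0410 CPM in undamaged hearts, log2 7.16 ± 0.87), and Tmem2, a cell surface hyaluronidase (log2 1.72).

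Of 42 tested matrix proteases and inhibitors, 9 were higher and 0 lower, and the higher count was 5 without day 7 replicate 1 and 4 without 1A. Most of the calls were in ADAM and ADAMTS family members. Adamts12 and Adamts9 were 1.84 and 1.67 higher on the log2 scale. Ctsk, the collagen-degrading cathepsin K, was 1.00 higher, and its call ended without day 7 replicate 1 (0.0552) and 1A (0.0798). Mmp2, the gelatinase of fibroblasts, differed by 0.61 ± 0.23 (adjusted p = 0.162), Mmp14, its membrane activator, by 0.90 ± 0.28 (adjusted p = 0.0860), and Timp1, an inhibitor, by 1.37 ± 0.43 (adjusted p = 0.0955).

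Among 22 tested integrins and cadherins, 5 were higher and 1 lower, and the higher count was 3 without day 7 replicate 1 and 3 without undamaged replicate E3. Cdh2, N-cadherin, had 68, 117 and 58.4 CPM at day 7 and 11, 6.77, 4.46, 5.45 and 5.12 CPM in undamaged hearts (log2 3.63 ± 0.31, adjusted p = 1.47e-04). Cdh11, the cadherin of mesenchyme, had 102, 83.9 and 96.1 CPM at day 7 and 6.68, 6.93, 6.20, 19.6 and 18.8 CPM in undamaged hearts (log2 3.01 ± 0.39). Cdh3, P-cadherin, had 924 counts at day 7 and 2 in undamaged hearts, a ratio per library total of 929 (exact 95% interval 256 to 7679, counting error only). All 3 were without overlap. The lower one, Cdh5, is the cadherin of endothelium (log2 -1.65 ± 0.43), and its call ended without day 7 replicate 1 (0.175), 1A (0.139), 4A (0.146), undamaged replicate A6 (0.0685), E3 (0.0908) and F3 (0.096).

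Contractile and actin-bundling genes, which define the myofibroblast, had 9 members higher and 0 lower of 32 tested, 6 of them without each library in turn. Acta2, smooth muscle alpha actin (ENSMUSG00000035783.9, GRCm38 chromosome 19, 34241090 to 34255590), had 136, 265 and 99.6 CPM at day 7 and 31.3, 29.7, 34.9, 41.8 and 35.2 CPM in undamaged hearts (log2 2.27 ± 0.26, adjusted p = 9.47e-04). Palld, palladin, a scaffold of stress fibres (ENSMUSG00000058056.16, GRCm38 chromosome 8, 61511433 to 61902690), had 148, 281 and 213 CPM at day 7 and 9.07, 7.03, 16.8, 8.27 and 11.1 CPM in undamaged hearts (log2 4.35 ± 0.29, adjusted p = 5.11e-05). Both genes were without overlap. Actn1, an actin cross-linker, Tagln (transgelin), Csrp2 and Tpm2 (beta tropomyosin) were 2.01, 1.80, 1.64 and 1.29 higher. The difference of Tagln was 1.10 without day 7 replicate 1A. Myh11, the heavy chain of mature smooth muscle, differed by -0.1 ± 0.55 (adjusted p = 0.943). The mural cell markers, of which Acta2 is one, summed to 905 to 1023 CPM at day 7 and 807 to 1022 CPM in undamaged hearts, and their part in the contractile result was not tested.

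Genes of the TGF-beta and activin pathway, which drives fibroblast activation, had 4 members higher and 0 lower of 32 tested, and the higher count was 2 without day 7 replicate 1, 2 without 1A, 2 without 4A, 2 without undamaged replicate A6, 7 without B7, 2 without E1, 2 without E3 and 2 without F3. Tgfb3, one of the ligands, had 587, 781 and 561 CPM at day 7 and 210.5, 202, 225, 221 and 259.9 CPM in undamaged hearts (log2 1.52 ± 0.16, adjusted p = 6.06e-04). The ligands Tgfb1 and Tgfb2 differed by -0.23 ± 0.25 (adjusted p = 0.651) and -0.18 ± 0.18 (adjusted p = 0.621), and the receptors Tgfbr1 and Tgfbr2 by 0.18 ± 0.17 (adjusted p = 0.590) and 0.18 ± 0.19 (adjusted p = 0.649). Of the 26 BMP and GDF genes, 4 were higher and 1 lower. The higher count was 1 without day 7 replicate 1, 1 without 1A, 2 without 4A, 1 without undamaged replicate A6, 2 without E1, 1 without E3 and 2 without F3. Apart from the proteinase Bmp1 these calls ended without 1 library or another, among them that of Gdf6 (1.08), a bone morphogenetic ligand, without day 7 replicate 1 (0.0984), 1A (0.189), undamaged replicate A6 (0.0691), E3 (0.0701) and F3 (0.0807), and that of the antagonist Chrd (-0.71) without day 7 replicate 1 (0.0599) and 1A (0.0848).

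Wnt signalling showed calls in both directions, 7 higher and 3 lower of 31 tested. The higher count was 4 without day 7 replicate 1 and 4 without 1A, and the lower count 1 without day 7 replicate 1 and 1 without undamaged replicate E3. Secreted inhibitors were at opposite ends. Sfrp2, which binds Wnt proteins (ENSMUSG00000027996.13, GRCm38 chromosome 3, 83766321 to 83774316), had 1423, 1093 and 800.2 CPM at day 7 and 118, 64.7, 72.9, 124 and 208 CPM in undamaged hearts (log2 3.23 ± 0.36, adjusted p = 7.60e-04). Wif1, the Wnt inhibitory factor (ENSMUSG00000020218.11, GRCm38 chromosome 10, 121033960 to 121100650), had 0, 0.613 and 0 CPM at day 7 and 19.1, 7.67, 3.20, 7.97 and 8.61 CPM in undamaged hearts (log2 -5.35 ± 0.96, adjusted p = 0.0101). Day 7 replicates 1 and 4A held no count of Wif1, and 1A stood above the 0.157 CPM that 3 counts are worth there. With so few counts in the group, the fitted difference depends on the prior count. It was -10.43 without day 7 replicate 1A, the one day 7 library with counts, and the adjusted p was 0.0570 with the kind of code as a covariate. Ror1, a Wnt5a receptor, and Nkd1, an intracellular antagonist, were 1.37 and 1.34 higher. Sfrp1 was 1.31 higher, and its call ended without day 7 replicate 1 (0.0568) and 1A (0.0826).

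Among growth factors of the PDGF, FGF, VEGF and EGF families, 5 of 30 were higher and 2 lower, 3 and 0 of them without each library in turn. The higher count was 3 without day 7 replicate 1, 3 without 1A, 3 without 4A, 3 without undamaged replicate E1 and 3 without E3, and the lower count 0 without day 7 replicate 1 and 0 without 1A. Pdgfa, a ligand of PDGFRa itself, averaged 12.7 ± 1.83 CPM at day 7 (SD, n = 3) and 4.39 ± 0.224 CPM in undamaged hearts (SD, n = 5) (log2 1.53 ± 0.19). Angptl4, an inhibitor of lipoprotein lipase that is grouped here with the angiopoietin-like factors, had 297, 192 and 123 CPM at day 7 and 61.2, 24.9, 53.4, 16.8 and 30.2 CPM in undamaged hearts (log2 2.45 ± 0.40). Fgf10, a mesenchymal growth factor for epithelium and adipose tissue, was lower, with 1.17, 0.780 and 2.06 CPM at day 7 and 16.6, 15.4, 12, 6.51 and 4.47 CPM in undamaged hearts (log2 -3.04 ± 0.53). Its call ended without day 7 replicate 1 (0.0559) and 1A (0.0546). In the IGF axis H19, an imprinted RNA beside Igf2, was the only call of 16 tested members, with 98.4, 291 and 166 CPM at day 7 and 0.848, 9.67, 3.49, 3.81 and 0.369 CPM in undamaged hearts (log2 5.69 ± 0.75, adjusted p = 0.00194). Igf1 differed by 0.65 ± 0.19 (adjusted p = 0.0719). The heparin-binding cytokines pleiotrophin and midkine were both higher. Ptn had 222, 229 and 165 CPM at day 7 and 13.3, 8.04, 11.9, 16.5 and 22.1 CPM in undamaged hearts (log2 3.83 ± 0.27, adjusted p = 6.91e-05). Mdk had 79, 46.1 and 66.2 CPM at day 7 and 6.57, 6.56, 9.44, 10.7 and 10.7 CPM in undamaged hearts (log2 2.86 ± 0.23, adjusted p = 1.21e-04). Every day 7 library lay above every undamaged one in both.

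Chemokines and their receptors gave 4 higher and 2 lower of 26 tested. The higher count was 2 without day 7 replicate 1, 2 without 4A and 2 without undamaged replicate E3, and the lower count 0 without day 7 replicate 1, 1 without 1A, 1 without 4A, 1 without undamaged replicate A6, 1 without E1, 1 without E3 and 1 without F3. Cxcl12, the ligand that retains bone marrow cells, had 287, 299 and 326 CPM at day 7 and 138, 103, 150.3, 112 and 116 CPM in undamaged hearts (log2 1.29 ± 0.15, adjusted p = 9.48e-04). Its scavenging receptor Ackr3 was lower, with 269, 266 and 571 CPM at day 7 and 730.2, 853, 784, 865 and 813 CPM in undamaged hearts (log2 -1.13 ± 0.26), and the call ended without day 7 replicate 1 (0.134), 1A (0.128), undamaged replicate A6 (0.0512), E1 (0.0519), E3 (0.0645) and F3 (0.0578). Ccl11 (eotaxin), an attractant of eosinophils, had 17.4, 32.8 and 23.3 CPM at day 7 and 83.6, 142, 125, 66.1 and 49.6 CPM in undamaged hearts (log2 -1.93 ± 0.36), and lost its call without day 7 replicate 1 (0.0728) and 4A (0.0506). Ccl9, an attractant of myeloid cells, was 3.47 higher. Ccl2, the monocyte attractant, had 40.4, 33.5 and 145 CPM at day 7 and 125, 117, 171, 32.2 and 74.1 CPM in undamaged hearts (log2 -0.51 ± 0.56, adjusted p = 0.654). Among cytokines, Il1r1, the interleukin 1 receptor, was 1.14 higher (adjusted p = 0.00451), Il33 was 1.24 higher with the call ending without day 7 replicate 1 (0.152), 4A (0.0857), undamaged replicate A6 (0.0585), E1 (0.0508) and E3 (0.0533), and Il6 differed by -0.63 ± 0.68 (adjusted p = 0.648). Complement gave 4 higher and 1 lower of 26 tested, and the higher count was 2 without day 7 replicate 4A. C1qtnf6 (CTRP6), a secreted C1q-like protein, was the strongest by p, with 468, 296 and 283 CPM at day 7 and 39.8, 42.3, 31.7, 66.8 and 41.6 CPM in undamaged hearts (log2 2.97 ± 0.25), and Cfi, complement factor I, averaged 9.25 ± 3.10 CPM at day 7 (SD, n = 3) and 0.116 ± 0.107 CPM in undamaged hearts (SD, n = 5).

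Both subunits of soluble guanylate cyclase, the receptor of nitric oxide, were higher and were the only calls among 19 genes of the nitric oxide and cGMP pathway. Gucy1a3 had 132, 138 and 161 CPM at day 7 and 35.4, 41.5, 25.9, 44.9 and 49.2 CPM in undamaged hearts (log2 1.87 ± 0.19, adjusted p = 4.86e-04). Gucy1b3 had 85.1, 85.3 and 94.9 CPM at day 7 and 42.1, 47.9, 31.5, 40.2 and 32.8 CPM in undamaged hearts (log2 1.19 ± 0.15, adjusted p = 0.00164). Of 20 tested potassium channel genes, 5 were higher and 1 lower. Kcnj15, an inward rectifier, had 123, 114 and 53.6 CPM at day 7 and 9.91, 10.3, 6.97, 5.86 and 10.6 CPM in undamaged hearts (log2 3.47 ± 0.28, adjusted p = 1.23e-04). Kcne4, an accessory subunit, and Kcnma1, the large-conductance calcium-activated channel, were 1.86 and 2.80 higher.

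Cell division genes were at low levels in both groups. Of 48 tested cyclins, kinases and division genes, 10 were higher, 0 lower and 47 had a positive difference, with a median of 1.82. The count was 0 without day 7 replicate 1, 0 without 1A, 4 without undamaged replicate A6, 31 without B7, 4 without E1 and 4 without F3. Top2a, which untangles sister chromatids, had 12.6, 22 and 11.8 CPM at day 7 and 2.33, 6.03, 1.94, 1.23 and 5.08 CPM in undamaged hearts (log2 2.21 ± 0.47, adjusted p = 0.0204), and its call ended without day 7 replicate 1 (0.0619) and 1A (0.113). Ccna2, cyclin A2, had 8.79, 7.30 and 7.50 CPM at day 7 and 1.17, 2.64, 1.11, 1.11 and 2.99 CPM in undamaged hearts (log2 2.11 ± 0.40), with the call ending without day 7 replicate 1 (0.0701) and 1A (0.0517). Mki67, the proliferation marker Ki-67, had 12.5, 18.2 and 7.50 CPM at day 7 and 1.91, 4.12, 1.89, 2.11 and 0 CPM in undamaged hearts (log2 2.68 ± 0.77, adjusted p = 0.0708). Of 48 DNA replication genes 3 were higher (6.25%, background 3.95%). That count was 0 without day 7 replicate 1, 0 without 1A, 1 without 4A, 8 without undamaged replicate B7, 1 without E1 and 1 without F3. No call was made by edgeR among 19 other cell cycle regulators, which hold cyclin-dependent kinase inhibitors, D-type cyclins, Trp53, Mdm2 and retinoblastoma family genes.

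The promoters of division genes often carry the cell cycle genes homology region (CHR), an element through which they are silenced in resting cells, while replication genes more often carry E2F sites. Promoter sequences were taken from RefSeq (GRCm38.p6, 250 bases before to 50 after the start), which matched 40 of 48 division and 39 of 48 replication genes. The CHR letters TTTGAA were found on either strand in 33 of 43 division promoters (76.7%), 7 of 47 replication promoters (14.9%) and 11.6% of the promoters of all genes tested, and in 8 of the 9 promoters of called division genes. The E2F letters TTTGGCGC or TTTCCCGC stood in 0 of 43 division promoters, 34% of replication promoters and 2.84% of the promoters of all genes tested. CCAAT stood in 72.1%, 59.6% and 37.4% of these. Each motif was counted on its own, and matches of CCAAT and TTTGAA can share an end base. Windows from 120 bases before to 30 after the start are shown for 4 called genes, with the CHR letters, or TTCAAA where they lie on the other strand, in capitals. A match describes letters and not a bound site. The regions are chr11:99024160-99024309 (minus strand) for Top2a, chr1:139454653-139454802 (plus strand) for Aspm, chr15:99651627-99651776 (minus strand) for Racgap1 and chr2:164769809-164769958 (plus strand) for Ube2c.
Top2a: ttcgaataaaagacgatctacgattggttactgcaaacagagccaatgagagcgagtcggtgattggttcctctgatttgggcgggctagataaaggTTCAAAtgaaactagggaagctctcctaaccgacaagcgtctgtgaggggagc
Aspm: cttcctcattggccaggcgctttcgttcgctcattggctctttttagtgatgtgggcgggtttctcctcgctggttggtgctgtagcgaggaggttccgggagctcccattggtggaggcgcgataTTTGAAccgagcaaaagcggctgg
Racgap1: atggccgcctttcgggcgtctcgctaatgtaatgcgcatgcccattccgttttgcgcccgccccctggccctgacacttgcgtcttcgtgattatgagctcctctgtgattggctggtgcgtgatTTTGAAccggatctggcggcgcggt
Ube2c: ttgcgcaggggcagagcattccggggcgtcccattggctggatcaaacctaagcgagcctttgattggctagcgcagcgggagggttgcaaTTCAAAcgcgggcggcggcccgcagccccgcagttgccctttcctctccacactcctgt
In Top2a and Ube2c the letters start 23 and 29 bases before the annotated start, and in Aspm and Racgap1 they start at base 7 and base 6, counted from 1 at the start. Aspm (spindle organisation), Racgap1 (cytokinesis) and Ube2c (mitotic ubiquitin transfer) had log2 differences of 2.28, 1.76 and 2.05, and their calls ended without day 7 replicate 1 (0.142), 1A (0.143), 4A (0.0594), undamaged replicate A6 (0.0648), E1 (0.0732) and F3 (0.0754) for Aspm, without day 7 replicate 1 (0.158), 1A (0.173), undamaged replicate A6 (0.0736), E1 (0.0817) and F3 (0.0895) for Racgap1 and without day 7 replicate 1 (0.168), 1A (0.144), 4A (0.107), undamaged replicate A6 (0.0811), E1 (0.0754), E3 (0.0755) and F3 (0.106) for Ube2c.

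The called genes of the resting fibroblast were all lower. Of 29 tested, 0 were higher and 10 lower against a background of 2.25%, with a median log2 difference of -0.73, and 3 calls were made without each library in turn. The count was 3 without day 7 replicate 1, 5 without 4A and 5 without undamaged replicate E3. In the prefixed libraries alone 2 members were lower, and 3 with the kind of code as a covariate. The median was -0.50 in both, which take the difference from the same libraries. Gsn, gelsolin, an actin-severing protein and one of the most abundant fibroblast transcripts (ENSMUSG00000026879.14, GRCm38 chromosome 2, 35256380 to 35307892), had 20492, 17474 and 22053 CPM at day 7 and 50057, 49016, 54229.5, 46853 and 45211 CPM in undamaged hearts (log2 -1.29 ± 0.23, adjusted p = 0.0105). No library overlapped, and the call ended without day 7 replicate 1 (0.0683) and 1A (0.0575). Inmt, an indole methyltransferase (ENSMUSG00000003477.5, GRCm38 chromosome 6, 55170626 to 55175043), had 28.6, 33.7 and 39.4 CPM at day 7 and 115, 177, 126, 178 and 338 CPM in undamaged hearts (log2 -2.46 ± 0.35, adjusted p = 0.00300). Hsd11b1, which regenerates active glucocorticoid, had 88.6, 162 and 105 CPM at day 7 and 474, 424, 371, 331 and 314 CPM in undamaged hearts (log2 -1.69 ± 0.23). Dpep1, a membrane dipeptidase, had 467, 618 and 604 CPM at day 7 and 1537, 1747, 1179.7, 1268 and 1177 CPM in undamaged hearts (log2 -1.30 ± 0.21). The last 3 held without each library in turn. Abca8a and Abca8b, closely related lipid transporters whose reads may be split, were -0.91 and -1.01 on the log2 scale, and the call of Abca8a ended without day 7 replicate 1 (0.127), 4A (0.0874), undamaged replicate A6 (0.0511), E1 (0.0521), E3 (0.0593) and F3 (0.0666), that of Abca8b without day 7 replicate 1 (0.127), 4A (0.102), undamaged replicate A6 (0.0691), E1 (0.0667), E3 (0.0633) and F3 (0.082).

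**Figure D4:**
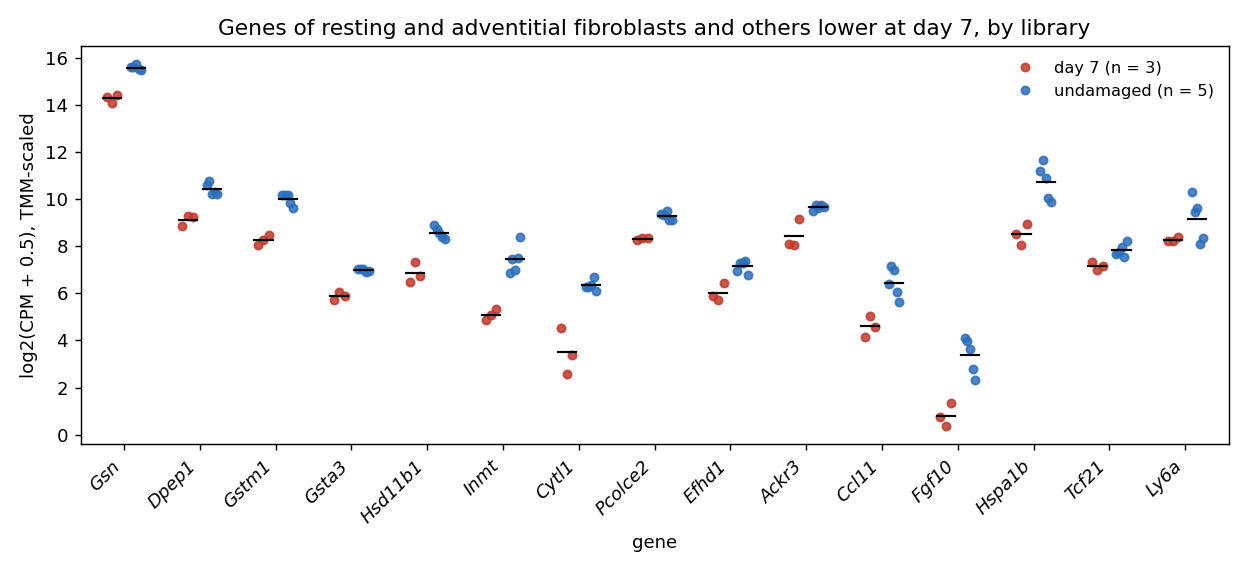
CPM per library on a log2 axis (after adding 0.5 CPM) for 15 genes with a lower mean at day 7, day 7 to the left of undamaged, with dots for libraries and a line at the mean. Gstm1, Inmt and Cytl1 have no overlap, while Ly6a, which did not pass the test, does.

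The adventitial progenitor genes had 0 higher and 5 lower of 29 tested, with a median of -0.63, and the lower count was 1 without day 7 replicate 1, 2 without 1A, 9 without undamaged replicate B7, 3 without E3 and 3 without F3. In the prefixed libraries alone and with the kind of code as a covariate no member was called. The median was -0.31 in both, which take the difference from the same libraries. Besides Pcolce2, given above, Efhd1, a mitochondrial calcium-binding protein, had 58.8, 52 and 85.6 CPM at day 7 and 122, 158, 158, 166 and 108 CPM in undamaged hearts (log2 -1.12 ± 0.21), and its call ended without day 7 replicate 1 (0.0719) and 1A (0.0682). Hic1, a transcriptional repressor of quiescent mesenchymal progenitors, had 54, 60.1 and 78.7 CPM at day 7 and 64.6, 79.5, 73, 95.1 and 39 CPM in undamaged hearts (log2 -0.13 ± 0.25, adjusted p = 0.817). Sema3c, a guidance ligand of this subset, differed by -0.62 ± 0.19 (adjusted p = 0.0832). Of 22 cardiac stromal transcription factors 1 was higher and 2 lower, against backgrounds of 3.95% higher and 2.25% lower. Both counts were 0 without day 7 replicate 1, 0 without 1A and 0 without 4A. The single higher call is no result about the list. Tcf21, the defining factor of resident cardiac fibroblasts, had 158, 127 and 140.4 CPM at day 7 and 205, 216, 247, 188 and 294 CPM in undamaged hearts (log2 -0.70 ± 0.17, adjusted p = 0.0407), and its call ended without day 7 replicate 1 (0.0916), 1A (0.16), 4A (0.121), undamaged replicate E1 (0.0651), E3 (0.076) and F3 (0.0903).

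Enzymes that handle xenobiotics and retinoids moved in both directions, 4 higher and 10 lower of 38, with 4 of the lower calls made without each library in turn. The lower count was 5 without day 7 replicate 1, 5 without 1A and 16 without undamaged replicate B7, and the higher count 2 without day 7 replicate 1A. Gstm1, a glutathione transferase with close paralogs (ENSMUSG00000058135.12, GRCm38 chromosome 3, 108012255 to 108017973), had 267, 311 and 352 CPM at day 7 and 1155, 1152, 1166, 916 and 789 CPM in undamaged hearts (log2 -1.74 ± 0.20, adjusted p = 9.47e-04). Gsta3, of another class of these enzymes, had 52.9, 66.5 and 57.8 CPM at day 7 and 130.003, 129, 132, 119 and 124 CPM in undamaged hearts (log2 -1.10 ± 0.12). Rarres2 (chemerin) was -1.15 on the log2 scale. Higher were Cyp7b1, an oxysterol hydroxylase, and Ephx2, a soluble epoxide hydrolase, by 2.92 and 2.88. Crabp2, which carries retinoic acid to its receptor, was 4.06 higher, and its call ended without day 7 replicate 1 (0.0544) and 1A (0.0695). Of 26 tested lipid handling genes 1 was higher (Angptl4) and 4 were lower, against backgrounds of 3.95% higher and 2.25% lower. The single higher call is no result about the list. The lower ones included Cd36, the fatty acid transporter (log2 -1.73 ± 0.38). Its call ended without day 7 replicate 1 (0.0865), 1A (0.0933), 4A (0.0925) and undamaged replicate E3 (0.0531). The lower count of this list was 1 without day 7 replicate 1, 1 without 1A, 0 without 4A, 1 without undamaged replicate E3 and 2 without F3.

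Among stress programmes the heat shock chaperones had 0 higher and 2 lower of 21 (background 2.25% lower). The lower count was 0 without day 7 replicate 1, 0 without 1A, 4 without 4A and 8 without undamaged replicate B7, and 7 with DESeq2. Hspa1a and Hspa1b, near-identical inducible HSP70 genes that may share reads, were these 2 calls. Hspa1b had 367, 267 and 498 CPM at day 7 and 2331, 3192, 1899, 1055 and 929.7 CPM in undamaged hearts (log2 -2.32 ± 0.43), and its call ended without day 7 replicate 1 (0.0714) and 1A (0.0744). Hspa1a was -2.40 on the log2 scale, with the call ending without day 7 replicate 1 (0.1) and 1A (0.107). The chaperone list's median was -0.74 and 0.086 in the prefixed libraries alone, where no chaperone was called. Of 31 immediate early genes 1 was higher, and Fos, an AP-1 subunit, had 4739, 3598 and 5497 CPM at day 7 and 5999, 5482, 5536, 4556 and 4462 CPM in undamaged hearts (log2 -0.18 ± 0.21, adjusted p = 0.690). Interferon response genes had 0 higher and 1 lower of 42, and NF-kB feedback and acute phase genes 1 higher of 24. The background was 3.95% higher and 2.25% lower, so single calls in lists of this size are no result about them.

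The 64 nuclear oxidative phosphorylation genes were all below 0, with a median of -0.32 and 2 lower, and that count was 1 without day 7 replicate 1, 0 without 1A, 0 without 4A, 4 without undamaged replicate B7, 0 without E1, 0 without E3 and 0 without F3. The 81 cytosolic ribosomal protein genes had a median of -0.69 and 7 lower (8.64%, background 2.25% lower). That count was 0 without day 7 replicate 1, 0 without 1A, 0 without 4A, 36 without undamaged replicate A6, 11 without B7, 0 without E1, 0 without E3 and 0 without F3. None of these calls was thus made again without each library in turn. Ribosomal protein genes have many processed pseudogenes that can share their reads. Of 45 secretory pathway and endoplasmic reticulum folding genes 2 were higher, Pdia5, a disulphide isomerase (log2 1.25 ± 0.14), and Ssr2, a translocon subunit (log2 0.73 ± 0.12). These 2 made up 4.44% of the list, near the background of 3.95% higher. The lower oxidative phosphorylation genes made up 3.12%, near the background of 2.25% lower. Neither count is a result about its list.

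Counts of calls are given here first for the prefixed libraries alone, with 2 libraries a group, and then with the kind of title code as a covariate. Both settings take the day 7 difference from the same libraries. Among the lists of activation and matrix, higher calls numbered 13 and 16 for fibroblast activation, 4 and 8 for fibrillar collagens, 5 and 8 for the other collagens and 8 and 13 for matricellular proteins. They numbered 3 and 7 for collagen processing, 3 and 5 for elastic fibres, 4 and 7 for proteases, 4 and 6 for matrifibrocyte genes, 3 and 5 for contractile genes and 0 and 1 for division genes. Among the signalling lists they numbered 1 and 2 for TGF-beta, 0 and 2 for BMP and GDF, 1 and 5 for Wnt and 5 and 6 for chemokines. Lower calls numbered 1 and 7 for xenobiotic and retinoid enzymes, 1 and 1 for endothelial markers and 0 and 0 for ribosomal proteins.

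Markers of other cell types were read beside these results. The leukocyte list had no call among its 16 tested members and summed to 52.9 to 59.6 CPM at day 7 and 20.9 to 94.4 CPM in undamaged hearts, with no count of Cd3e, Cd3d and Ms4a1 in any library. The high value was that of B7, and the other 4 undamaged libraries stood at 20.9 to 31.9 CPM, below every day 7 library. Without B7 this list had 4 members higher and a median of 1.45, against a median of 0.97 with all 8 libraries. The endothelial list summed to 507 to 617 CPM at day 7 and 692 to 889 CPM in undamaged hearts, with 1 higher and 5 lower of 21. The lower count was 1 without day 7 replicate 1, 2 without 1A, 1 without 4A, 3 without undamaged replicate A6, 1 without E3 and 1 without F3. Pecam1, which encodes the excluded CD31, had 11.1, 6.24 and 7.63 CPM at day 7 and 31.9, 45.9, 37.6, 24 and 41.5 CPM in undamaged hearts (log2 -2.12 ± 0.26, adjusted p = 0.00132). Erg, an endothelial transcription factor, went the other way, with 24.3, 21 and 13.5 CPM at day 7 and 1.22, 2.54, 1.65, 1.41 and 1.84 CPM in undamaged hearts (log2 3.49 ± 0.29, adjusted p = 1.23e-04). Epicardial and mesothelial markers summed to 273 to 395 CPM at day 7 and 211 to 273 CPM in undamaged hearts. Their 11 tested members had a median of 2.85 and 1 call, of Aldh1a2, a retinoic acid synthase, which ended without day 7 replicate 1A (0.139), 4A (0.0748) and undamaged replicate F3 (0.064). The count was 0 without day 7 replicate 1A, 0 without 4A, 5 without undamaged replicate B7 and 5 without E3. With DESeq2 it was 3 and with limma-voom 3. In the fit of both gates described below, 14 members were tested. There 7 were higher in the positive gate (median 3.69) and 8 in the negative gate (median 4.45). Wt1, the epicardial transcription factor, had 1.78, 2.95 and 23.8 CPM at day 7 and 0.530, 0.687, 1.74, 0.0586 and 0 CPM in undamaged hearts (adjusted p = 0.0590), with replicate 4A the highest. Cardiomyocyte markers summed to 455 to 656 CPM at day 7 and 308 to 560 CPM in undamaged hearts with no call. Adipocyte markers summed to 24.1 to 27.8 CPM at day 7 and 36.7 to 152 CPM in undamaged hearts, and Schwann and glial markers to 215 to 236 CPM at day 7 and 303 to 333 CPM in undamaged hearts. The part of any of these cell types in the results above was not tested.

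The day 7 change was also set beside that of the Sca-1 negative gate, in a fit of both gates with 15 libraries. The negative gate had 1048 genes higher (7.91%) and 830 lower (6.27%) at day 7, and the positive gate 419 (3.16%) and 232 (1.75%) in that fit, or 4.91% in all. The test of the difference in change gave 0 calls among 13248 genes by edgeR (678 at an unadjusted p under 0.05), 49 by DESeq2 and 1 by limma-voom. With the codes shared between gates of undamaged hearts as a block, and the day 7 libraries unpaired, limma-voom called 3 genes. All had a negative difference (positive minus negative gate) and were chosen here after their values were seen. They were Flrt2, a fibronectin-leucine-rich transmembrane protein (-1.67, adjusted p = 0.0135), Mfap5, a microfibril glycoprotein (-1.50, adjusted p = 0.0278), and Cd248, endosialin (-2.03, adjusted p = 0.0317). In the positive gate Postn changed by 3.13 ± 0.42, against 4.87 ± 0.49 in the negative, a difference of -1.74 ± 0.61 (adjusted p = 0.740), and Fn1 by 3.19 ± 0.45 and 6.31 ± 0.55, a difference of -3.13 ± 0.67 (adjusted p = 0.231 by edgeR and 0.0353 by DESeq2). Cell division genes had a median change of 1.86 with 3 calls in the positive gate and 3.30 with 30 calls in the negative one. Resting fibroblast genes had medians of -0.74 and -1.35, and adventitial genes -0.64 and 0.15, in that order of gates. With all 15 libraries edgeR called no member of these 3 lists for the difference between gates. It called the adventitial genes Cd248 without undamaged negative-gate replicate E5 (-2.19, adjusted p = 0.0455) and Mfap5 without day 7 negative-gate replicate 4B (-1.75, adjusted p = 0.0330). Among members of these lists DESeq2 called Cd248 (-1.92), Mfap5 (-1.58), the mitotic genes Dlgap5 (-6.55) and Kif23 (-4.04), and the resting fibroblast chemokine Cxcl14 (1.61).

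The later Sca-1 positive libraries (2 at day 14, 4 at day 28) place the day 7 levels in time. They share the day 7 libraries with the first comparison, so only levels and their own tests are given. Day 14 differed from day 7 in 0 of 13588 genes by edgeR (590 at an unadjusted p under 0.05, 32 calls by DESeq2). Day 28 differed from day 7 in 95 genes (0.699%), 37 higher and 58 lower, and 31 without replicate E2, in which 55.8% of reads lay outside genes. Without other single libraries the number ran from 15 (without day 7 replicate 1A) to 128 (without day 28 F2), with 21 without day 7 replicate 1, 46 without 4A, 24 without day 28 B4 and 28 without B6. Cthrc1 averaged 383 ± 164 CPM at day 7, 136 ± 92.7 CPM at day 14 and 36 ± 14.6 CPM at day 28, against 1.44 ± 0.662 CPM in undamaged hearts, and was -3.41 ± 0.44 at day 28 relative to day 7 on the log2 scale (adjusted p = 0.00648). Col1a1 averaged 26044 ± 4908 CPM at day 7, 16759 ± 2462 CPM at day 14 and 7400.4 ± 2254 CPM at day 28 (-1.82 ± 0.26 at day 28 relative to day 7, adjusted p = 0.00795), and Adam12 differed by -2.50 ± 0.34 (adjusted p = 0.00648). The Cthrc1, Col1a1, Adam12, Col3a1 (-1.36 ± 0.20) and C1qtnf6 (-1.98 ± 0.29) calls were made in each of the 7 fits that leave out 1 library of the 2 time points. Acta2 was -1.85 ± 0.30 (adjusted p = 0.0151), and its call ended without day 7 replicate 1A (0.0689). Postn differed by -1.18 ± 0.55 (adjusted p = 0.351) and Fmod by -0.013 ± 0.42 (adjusted p = 0.994). Of the genes lower at day 7, Inmt, Gstm1 and Pcolce2 were 2.60 ± 0.50, 1.21 ± 0.23 and 0.89 ± 0.17 at day 28 relative to day 7 (adjusted p = 0.0281, 0.0295 and 0.0295). These 3 calls ended without day 7 replicate 1 (0.165, 0.176 and 0.160), 1A (0.14, 0.129 and 0.123), 4A (0.086, 0.0735 and 0.0885), day 28 B4 (0.0619, 0.0619 and 0.0673) and B6 (0.072, 0.0635 and 0.0596), and that of Pcolce2 also without day 28 E2 (0.0545). Gsn was 0.98 ± 0.24 (adjusted p = 0.0842).

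**Figure D5:**
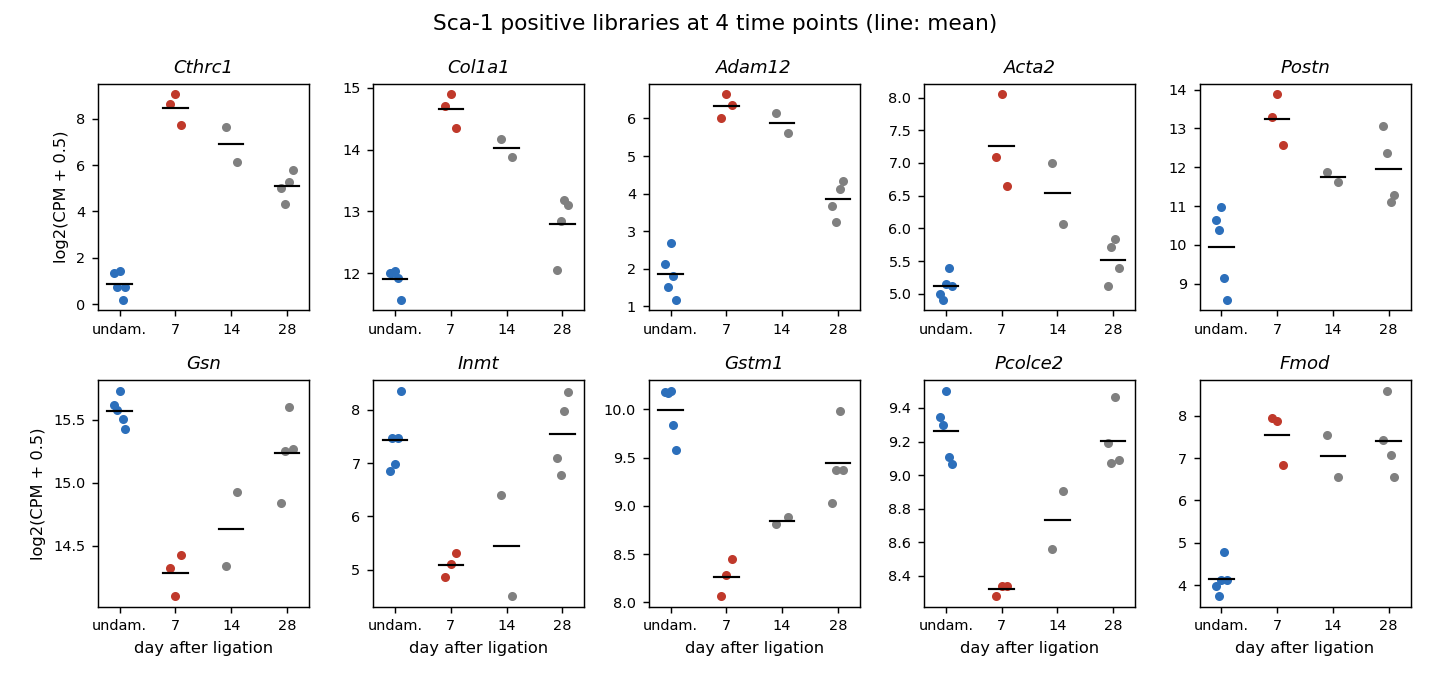
CPM per library on a log2 axis (after adding 0.5 CPM) at 4 stages, undamaged, day 7, day 14 and day 28, for 10 genes, each with its own y axis, dots for libraries and a line at the mean. Cthrc1 and Col1a1 lie lower at day 28 than at day 7 and above undamaged, and Fmod lies at similar levels at both times.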

How the data were processed

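The deposited values were raw counts of reads per gene symbol, 1 list for each library with 24421 genes and 2 entries that name no gene, which were left out of library sizes (reads outside genes were 5.53% to 11.2% of the 8 libraries compared). The submitters' processing notes name Bowtie2, TopHat, STAR, Cufflinks and bcl2fastq, with mm10 as the build. The counting program, its strand setting and its annotation are not given in the sources used here, so overlapping and near-identical genes can share counts. Per the labels' protocols a stranded mRNA kit and paired ends were used, and the cells sorted for the nuclear reporter and SCA-1. Identifiers and positions are from GENCODE M21, which held 23376 symbols (95.7%). The counts carry no molecular identifiers, so intervals and floors cover counting error only.

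The test was edgeR's quasi-likelihood one (version 4.0.16 under R 4.3.3, TMM factors, low-count filter by group, two-sided, Benjamini-Hochberg adjustment over all genes tested, threshold 0.05). CPM are scaled by TMM factors except sums over marker lists, which use plain totals. The ± marks give SD beside CPM. Beside a log2 difference they give its absolute value divided by the square root of the test's F statistic. This stands in for a standard error and is rough where a group has few counts. The steps were tested on simulated counts with the same dispersion for every gene and no outlying library. That test does not show how the calls behave with a library that stands apart, such as B7. Alternatives were other scalings and filters, DESeq2 1.42.0, limma 3.58.1 (voom), other sets of libraries and each library left out. The compared groups share no replicate code, but codes F3, A6 and B7 occur in both gates of undamaged hearts. Deviations from the group means correlated at 0.387, 0.265 and 0.338 for the same code and at -0.302 to 0.0804 otherwise. These codes were therefore used as a block in a limma-voom fit of the gates, while the edgeR fit of the gates has no block. The day 7 libraries entered the block fit unpaired, and whether those of both gates shared hearts was not checked. Named genes were 15 anchors (the sort and activation genes among them), the 12 genes per direction with the largest change among calls with a mean log2 CPM of at least 3 and no overlap, the 4 smallest p of each list, and further members by role. One further gene picked by this rule is not reported here. The libraries and the lists were chosen with earlier results of these data known.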

Additional observations from a re-analysis of the deposited data

Results flagged for a closer look

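The levels of the genes named in the text were compared within the 5 undamaged libraries, and a library was picked out where its gap to the nearest other library, as a share of the group's range, exceeded 0.71. In groups of independent, normally distributed values about 1 of 20 would be picked out, a rate that CPM near 0 and related genes need not follow. Here 13 of 169 genes were picked out, 7 of them for replicate B7. Replicate B7 stood below the other 4 libraries for Col1a1 (3124 CPM, others 3897 to 4159), Fbn1 (1673 CPM, others 3031 to 3547), Tgfbr1 (77.2 CPM, others 115 to 125) and Agrn (52.6 CPM, others 93.0 to 97.6). It stood above them for Inmt (338 CPM, others 115 to 178), Dlgap5 (2.05 CPM, others 0.235 to 0.740) and Col11a1 (1.89 CPM, others 0 to 0.352). Replicate F3 stood above the others for Fn1 (2299.8 CPM, others 381 to 787) and Nkd1 (6.78 CPM, others 4.34 to 4.97). Replicate E1 stood above them for Cemip (0.848 CPM, others 0 to 0.145) and Tnn (0.318 CPM, others 0 to 0.0586), replicate A6 for Acan (0.645 CPM, others 0 to 0.106), and replicate E3 stood below them for Flrt2 (44.99 CPM, others 49.1 to 50.8). The day 7 calls of Col1a1, Inmt, Col11a1, Fn1, Nkd1, Cemip and Tnn were made in each fit that leaves out 1 library.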

How the results depend on the processing

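The 794 calls between day 7 and undamaged hearts came to 717 to 794 under RLE or upper-quartile factors, limma-voom and other low-count filters, and to 751 and 753 in fits with all 26 libraries or all 14 Sca-1 positive ones. They came to 1480 with DESeq2, 456 with the kind of title code as a covariate, 131 in the prefixed libraries alone and 104 with only the day 7 library whose gate the labels give. Alternatives chosen after seeing the data gave 133 (the Xist-bearing day 7 libraries left out) and 1934 (letter-coded undamaged libraries alone as the reference). Leaving out 1 library gave 317 to 1508. The cause of these shifts was not tested. No named gene called in the full fit reversed its direction under these alternatives. Of the genes followed one by one, 225 stayed on the same side of the threshold with DESeq2, while 40 gained a call and 1 lost it. In the prefixed libraries 146 stayed on the same side, 4 gained a call and 113 lost it. Among list counts of 1 or 2 calls in a direction, 28 of 32 moved by more than 1.5 times without 1 library or another.

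For the difference between gates, 0 genes were called by edgeR, 49 by DESeq2, 1 by limma-voom and 3 with the replicate block, and 0 to 2 when 1 library was left out. The first comparison shares no replicate code between its groups, so it had no block. Day 28 against day 7 gave 95 calls, 506 with DESeq2, 23 with only these 2 time points in the fit and 15 to 128 without 1 library. Day 14 against day 7 gave 0 calls, 32 with DESeq2 and 0 to 4 without 1 library. Genes with no count in some libraries, such as Wif1 in day 7 replicates 1 and 4A, are limited by depth.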

Other observations

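Several genes with large differences lay outside the lists above. C1qtnf3, a secreted C1q-like protein (CTRP3), had 108, 331 and 91.5 CPM at day 7 and 2.60, 1.96, 12.5, 2.17 and 6.02 CPM in undamaged hearts (log2 5.11 ± 0.64, adjusted p = 0.00149), with no overlap between the groups. On the lower side, Enpp6, a choline-specific phosphodiesterase, had 5.90, 6.02 and 5.58 CPM at day 7 and 19.7, 21, 26.4, 27.4 and 24.4 CPM in undamaged hearts (log2 -2.03 ± 0.18, adjusted p = 1.81e-04). Vit, vitrin, a secreted matrix protein, had 25.1, 31 and 39.97 CPM at day 7 and 112, 123, 113, 132 and 142 CPM in undamaged hearts (log2 -1.96 ± 0.18, adjusted p = 2.09e-04). Serpinb9b was -1.94 and Cystm1 -1.82 on the log2 scale (adjusted p = 0.00711 and 0.00295). Apold1, an early response gene of endothelium, had 3.78, 1.84 and 2.26 CPM at day 7 and 6.42, 15.8, 18.2, 5.39 and 11.9 CPM in undamaged hearts (log2 -2.14 ± 0.46), and its call ended without day 7 replicate 1 (0.0551), 1A (0.114), 4A (0.0857) and undamaged replicate E3 (0.0539).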
